A study of Mus musculus with 15 samples.

Results

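The dual specificity MAP kinase phosphatases were followed in microdissected cells of mouse lung. The family was taken as 9 genes, Dusp1, Dusp2, Dusp4, Dusp5, Dusp6, Dusp7, Dusp8, Dusp10 and Dusp16, and every probe set that the array annotation gives to 1 of these symbols was used. This gave 15 probe sets, and all 15 carried a gene ID that the RefSeq gene table pairs with the same symbol. The 9 genes were read among 18193 genes tested. Expression was measured on 15 Affymetrix arrays. H1 (3 arrays) and H2 (4 arrays) are the names under which the submitters divided the hyperplastic lesions, each of about 500 cells, and normal lung cells (8 arrays) were captured from the same sections. All groups came from K-RasG12V knock-in mice whose lungs had received Cre through an adenovirus 3 months earlier, so the normal cells share the genotype and the infection with the lesions. The oncogenic allele carries a colour marker, by which lesion cells were recognised. The promoter that drives the allele, the age and sex of the mice, what separates H1 from H2, the number of mice and which samples share a mouse are not stated by the labels used here. P-values over captured samples measure the spread between these samples, and shared mice could make them too small or too large.

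MAP kinases are switched on by phosphorylation of a threonine and a tyrosine in their activation loop, and the dual specificity phosphatases studied here remove both phosphates. Several of them are transcribed in response to the kinases they turn off, so that they act as negative feedback below Ras. The 9 genes studied here fall into 3 classes by place and substrate. Dusp1, Dusp2, Dusp4 and Dusp5 are inducible nuclear enzymes, Dusp6 and Dusp7 are cytoplasmic enzymes selective for ERK, and Dusp8, Dusp10 and Dusp16 act mainly on JNK and p38.

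The promoters of 8 of the 9 genes were in the RefSeq promoter table (assembly GRCm38.p6). Dusp4 was the other gene. In each, the 250 bases upstream of the gene start were searched on both strands. The letters searched were TGACGTCA (the cyclic AMP response element), its core TGACG (which lies within the full element), TGANTCA (the AP-1 site), CCGGAAG (an ETS site) and the CArG box bound by serum response factor. The full element was found in Dusp1 and Dusp8, against 1.55% of all 32851 windows of the same length. The core was found in Dusp1, Dusp5, Dusp8 and Dusp16, against 17.8% of all windows. The CArG box was found in Dusp5, with 2 adjacent matches, against 1.47% of all windows. The AP-1 letters were in 0 of the 8 windows (6.75% of all windows), and so were the ETS letters (6.91%). These are matches of letters and not shown sites. The window of Dusp6 is printed because Dusp6 was the member that passed the test, and those of Dusp1 and Dusp5 as 2 of the 4 windows with a match, 1 with the full element and 1 with the CArG box. Each is written on the strand of the gene, and capitals mark the matches. The Dusp6 window (chr10:99262981-99263230, plus strand) has none. The Dusp1 window lies at chr17:26508473-26508722 on the minus strand, and its capitals are a core 191 bases and a full element 143 bases upstream of the start. The Dusp5 window lies at chr19:53528895-53529144 on the plus strand, and its capitals are the CArG boxes 82 and 72 bases upstream and a core on the opposite strand 55 bases upstream.
Dusp6: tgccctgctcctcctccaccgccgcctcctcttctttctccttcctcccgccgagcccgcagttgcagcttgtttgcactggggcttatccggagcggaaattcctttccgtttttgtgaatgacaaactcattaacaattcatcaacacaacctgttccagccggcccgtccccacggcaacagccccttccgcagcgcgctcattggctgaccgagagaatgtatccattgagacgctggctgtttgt
Dusp1: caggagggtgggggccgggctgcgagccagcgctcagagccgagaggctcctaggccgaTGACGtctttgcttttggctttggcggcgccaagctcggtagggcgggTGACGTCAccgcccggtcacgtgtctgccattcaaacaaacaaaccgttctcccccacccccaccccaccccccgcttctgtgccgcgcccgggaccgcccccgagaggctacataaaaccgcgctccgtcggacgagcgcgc
Dusp5: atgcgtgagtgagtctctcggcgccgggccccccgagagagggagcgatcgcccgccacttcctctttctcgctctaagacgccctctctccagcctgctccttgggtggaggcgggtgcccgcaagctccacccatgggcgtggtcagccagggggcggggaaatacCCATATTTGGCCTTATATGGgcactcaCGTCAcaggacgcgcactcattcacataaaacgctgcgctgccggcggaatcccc

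All values are log2 signals, so a difference of 1 is a doubling, and ± after a difference is the standard error (SE) of the limma fit. Where a gene had several probe sets, the brightest of them, by its mean over the 15 arrays, was taken for the gene. The median of the gene means was 4.38, and probe sets under it are called dim here. Arrays differed in the spread of their gene values, whose standard deviation was 1.31 to 1.49 in H1, 1.52 to 1.78 in H2 and 1.14 to 1.67 in normal cells. H2 against normal gave an exact two-sided permutation p of 0.0222 for this spread (0.19 after adjustment over 12 comparisons). Markers of alveolar type 2 cells (7 of 8 measured) had a summed log2 signal of 11.79 to 13.56 in H1, 12.59 to 14.23 in H2 and 8.10 to 14.25 in normal cells. Macrophage markers (7 of 7) summed to 9.92 to 11.68, 11.34 to 12.49 and 7.68 to 12.75 in the same order of groups. Endothelial markers (10 of 10) summed to 8.24 to 8.91 in H1, 8.22 to 8.79 in H2 and 8.14 to 10.88 in normal cells. In H2 against normal, 7 of 7 type 2 markers lay above 0, with a median difference of 2.22 and 5 at p under 0.05 before adjustment. The medians in H2 were 1.07 for macrophage markers (5 of 7 above 0) and -0.76 for endothelial markers (1 of 10 above 0). Fibroblast markers (6 of 6) summed to 8.69 to 9.36 in H1, 9.71 to 10.41 in H2 and 7.22 to 9.87 in normal cells, with a median of 0.80 in H2 and 0.07 in H1. The sums of the first 3 lists ranged more widely among normal captures than among lesions, and fewer cells of a type cannot be told apart from less RNA per cell. No list of 11 cell types had over 1 called gene in any comparison, and the called ones were Abca3 (alveolar type 2), Cyp2f2 (club) and Col1a2 (fibroblast), all higher in H2 than in normal cells.

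Dusp6 was the only member that passed the test, and it did so in H2. With a gene called at a Benjamini-Hochberg adjusted p under 0.05 in limma, 1 of 9 members was called in H2 against normal, against 3.38% of all genes. In lesions against normal 0 of 9 were called, against 0.291% of all genes. In H1 against normal 0 of 9 were called (0.0110% of all genes), and in H1 against H2 0 of 9 (0.00550%). Before adjustment, p was under 0.05 for 3 members that were higher and 2 that were lower in H2 than in normal cells (21.4% of all genes were under that p). In lesions against normal 1 was higher and 2 were lower (12.8% of all genes), in H1 against normal 1 was higher and 1 lower (4.23%), and in H1 against H2 there were 0 (12.3%). The median difference of the 9 members was -0.05 in lesions, -0.05 in H1 and 0.14 in H2 against normal, beside -0.06, -0.05 and -0.04 over all genes. The family had no common direction. On the brightest probe set of each gene, 5 members lay above 0 and 4 below it in H2 against normal, and on the mean of each gene's probe sets 3 lay above and 6 below, since Dusp7 and Dusp16 change sign. By group mean, Dusp4 and Dusp6 ran normal, H1, H2 from low to high, while Dusp2, Dusp5 and the brightest probe set of Dusp8 ran H2, H1, normal. Dusp1 ran normal, H2, H1, and the brighter probe set of Dusp10 ran H1, H2, normal. Of all these pairs of groups, only H2 and normal in Dusp6 differed beyond the threshold. Dusp7 and Dusp16 are given by probe set below, since their probe sets ran in different orders. The dim probe sets of Dusp8 also ran in orders other than that of its brightest. The comparisons of H1 and of H2 share the same 8 normal arrays.

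**Figure D1:**
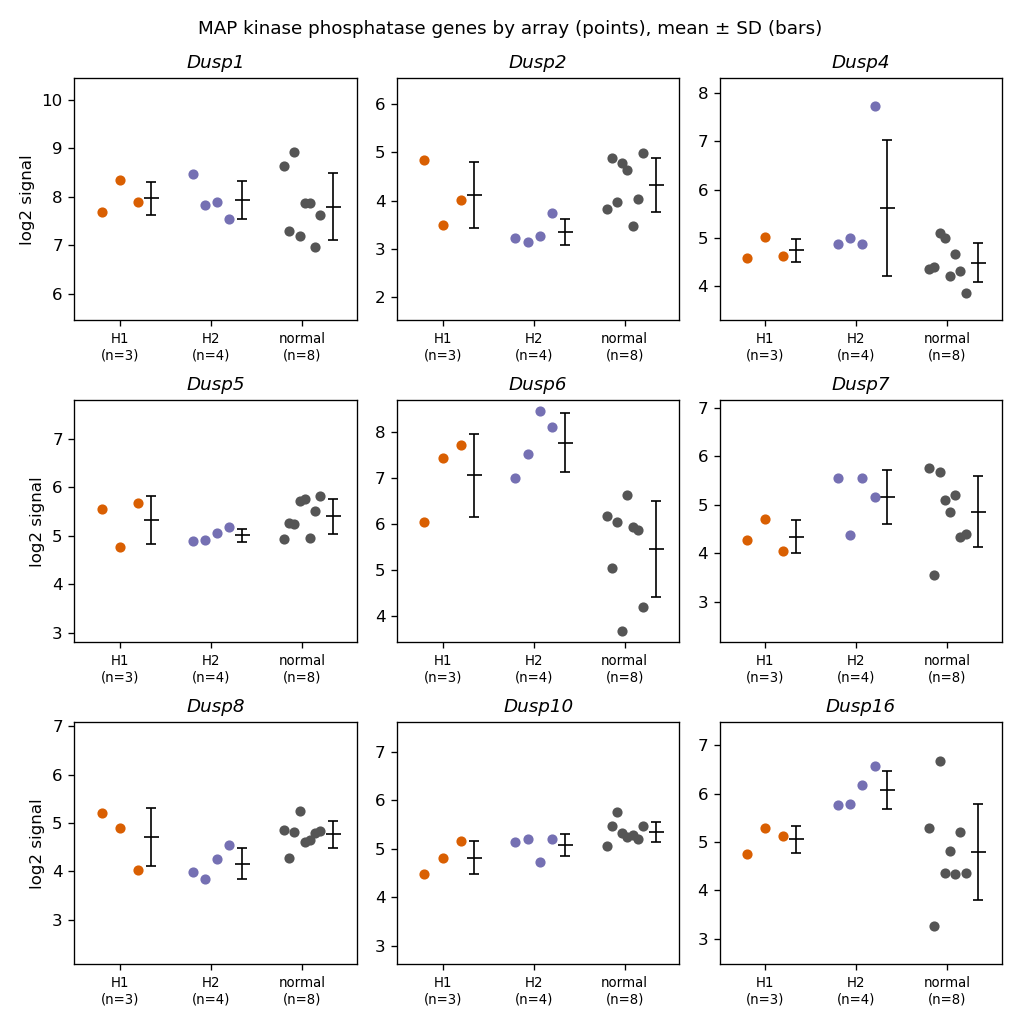
Log2 signal (vertical axis) of the 9 phosphatase genes on each array, with H1 (n = 3), H2 (n = 4) and normal cells (n = 8) along the horizontal axis. Points are arrays and bars are means ± SD. The 4 H2 arrays of Dusp6 sit between 6.99 and 8.44, above all normal arrays, and 1 H2 array of Dusp4 stands apart at 7.72.

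Dusp6 is a cytoplasmic phosphatase of ERK and is itself transcribed in response to ERK activity. Its probe set (1415834_at) had log2 signals of 6.03, 7.43 and 7.71 in H1, and of 6.99, 7.52, 8.44 and 8.10 in H2. In normal cells it lay between 3.66 and 6.63, with a median of 5.90. Every H2 array was above every normal array, while 1 H1 array (replicate 2) lay inside the normal range. No overlap of this kind was seen for 1 of 9 members, Dusp6, against 3.79% of all genes in H2 against normal. Dusp6 averaged 7.77 ± 0.64 in H2 (SD, n = 4) and 5.44 ± 1.04 in normal cells (SD, n = 8). The difference was 2.32 ± 0.52, or 5.00-fold, with a 95% interval of 1.23 to 3.41 and a limma adjusted p of 0.0249.

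In H1 against normal, Dusp6 differed by 1.61 ± 0.57 (interval 0.40 to 2.82), with a limma adjusted p of 0.997. The H1 mean was 7.06 ± 0.90 (SD, n = 3). For all lesions against normal cells the difference was 2.02 ± 0.44, or 4.05-fold, with 7 of 7 lesion arrays above the normal mean and a limma adjusted p of 0.0655. The levels ran in the order normal, H1, H2. The neighbours H1 and H2 did not differ beyond their spread, and H1 minus H2 was -0.71, with an interval of -2.07 to 0.66 and a limma adjusted p of 0.652. Dusp6 therefore was called in H2 and not in H1, without a difference between H1 and H2 that passed the test.

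The Dusp6 call in H2 moved with the choice of arrays and of model. The limma adjusted p was 0.0525 without H2 replicate 5, 0.092 without H2 replicate 6 and 0.0923 without H2 replicate 7. It was 0.0951 after a repeated quantile normalization, 0.16 with the 3 prime minus 5 prime signal of Actb (a measure of RNA state) as a covariate, and 0.0612 when the 2 normal arrays whose values spread least were left out. With array spread as a covariate the difference was 1.34 ± 0.52, with a limma adjusted p of 0.275. With the replicate number as a block it was 1.62 ± 0.51 (limma adjusted p = 0.238). For lesions against normal the call was gained, with a limma adjusted p of 0.0171 without H1 replicate 2, 0.0463 without normal replicate 3 and 0.0487 with dim genes left out. Alveolar type 2 markers moved with the same groups, with a median difference from normal of 1.35 in H1 and 2.22 in H2 beside 1.61 and 2.32 for Dusp6, and their part in the Dusp6 difference was not tested.

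**Figure D2:**
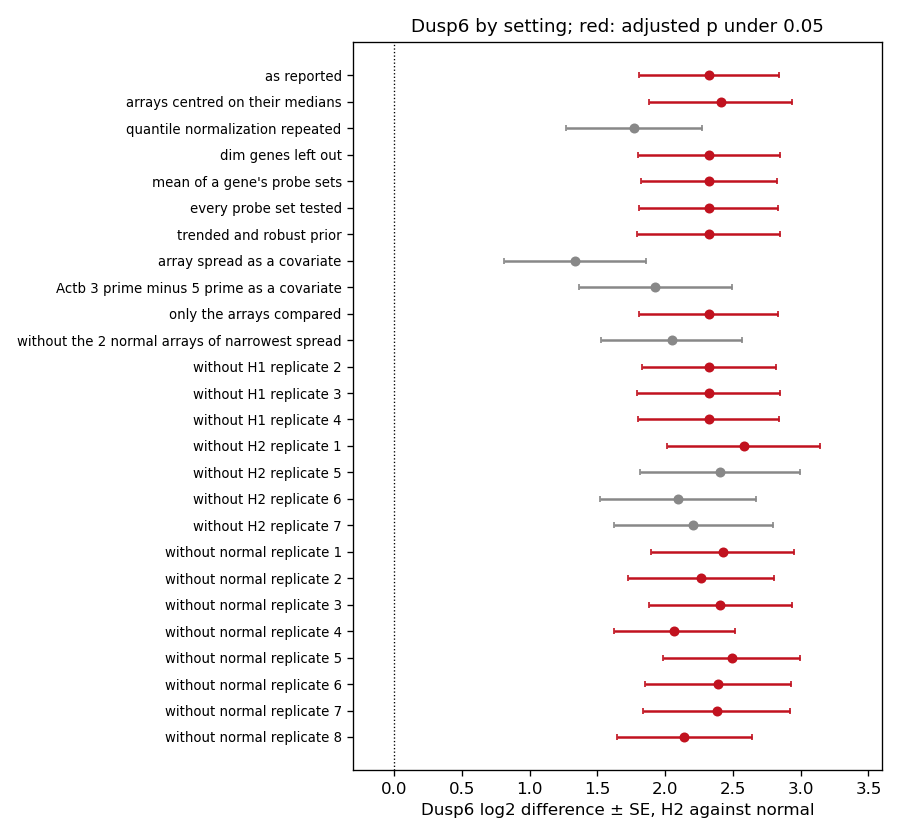
Log2 difference of Dusp6 between H2 and normal cells (horizontal axis, point ± SE) as reported and under alternative settings (vertical axis). The difference stays above 0 in every setting drawn, between 1.34 with array spread as a covariate and 2.58 without H2 replicate 1, and red points mark an adjusted p under 0.05. The fit with the replicate number as a block (1.62 ± 0.51, not called) is not drawn.

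Dusp7, the other cytoplasmic phosphatase of ERK among the 9 genes, was measured by 3 probe sets that went different ways. The brightest (1427416_x_at) had 4.28, 4.71 and 4.05 in H1, and 5.56, 4.37, 5.56 and 5.17 in H2, against 3.56 to 5.75 with a median of 4.99 in normal cells. The groups overlapped throughout. Its difference from normal was -0.52 ± 0.41 in H1 and 0.31 ± 0.37 in H2 (limma adjusted p = 0.997 and 0.668). The dim probe set 1452097_a_at averaged 3.20 ± 0.25 in H2 (SD, n = 4) and 3.94 ± 0.54 in normal cells (SD, n = 8). That difference was -0.74 ± 0.28, with a limma adjusted p of 0.168 over all probe sets. The third, 1460393_a_at, was dim in all groups and differed from normal by -0.03 in H1 and 0.07 in H2. No direction is therefore given for the gene.

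Among the inducible nuclear phosphatases, none passed the test in any of the 4 comparisons. Dusp1 is an immediate early gene whose product acts on p38, JNK and ERK. Its log2 signals were 7.68, 8.35 and 7.89 in H1, and 8.47, 7.82, 7.90 and 7.53 in H2, against 6.96 to 8.93 with a median of 7.74 in normal cells. All lesion arrays lay inside the normal range. Dusp1 differed from normal by 0.18 in H1 (interval -0.61 to 0.97) and by 0.14 in H2 (interval -0.57 to 0.85), and by 0.16 over all lesions (interval -0.43 to 0.74).

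Dusp4 acts on ERK, JNK and p38 in the nucleus. It had 4.59, 5.02 and 4.62 in H1, and 4.87, 5.00, 4.87 and 7.72 in H2, against 3.87 to 5.10 with a median of 4.38 in normal cells. All lesion arrays but H2 replicate 7 lay inside the normal range. With that array the H2 difference from normal was 1.13 ± 0.43 (limma adjusted p = 0.152), and without it 0.43 ± 0.25 (limma adjusted p = 0.402). With array spread as a covariate it was 0.49 ± 0.49 (limma adjusted p = 0.73). Over all lesions the difference was 0.75 ± 0.38 (limma adjusted p = 0.432), and 0.34 without H2 replicate 7.

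Dusp2, first known from activated lymphoid cells, was dim in all groups. It had 4.84, 3.49 and 4.02 in H1, and 3.23, 3.14, 3.27 and 3.74 in H2, against 3.47 to 4.97 with a median of 4.33 in normal cells. All 4 H2 arrays lay below the normal mean, and 3 of them below every normal array. The H2 difference was -0.98 ± 0.31, or 1.97-fold lower, with a limma adjusted p of 0.0906. It passed the test without normal replicate 6, at -1.10 with a limma adjusted p of 0.0491. With array spread as a covariate it was -0.42 ± 0.33 (limma adjusted p = 0.64), and with the Actb covariate -0.58 ± 0.30 (limma adjusted p = 0.492). In H1 it was -0.20 ± 0.34.

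Dusp5 is a nuclear phosphatase selective for ERK, and its promoter window is printed above. It had 5.55, 4.77 and 5.67 in H1, and 4.90, 4.92, 5.05 and 5.19 in H2, against 4.93 to 5.83 with a median of 5.38 in normal cells. The H2 arrays lay close together, 2 of them just below the lowest normal array. The H2 difference was -0.38 ± 0.22 (limma adjusted p = 0.337) and the H1 difference -0.07 ± 0.25. Dusp5 and Dusp6, both selective for ERK, thus had differences of opposite sign in H2, of which that of Dusp6 passed the test.

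Of the phosphatases that act mainly on JNK and p38, Dusp16 showed opposite values on its 2 probe sets. The brighter, 1418401_a_at, had 4.75, 5.28 and 5.14 in H1, and 5.76, 5.78, 6.18 and 6.58 in H2, against 3.26 to 6.68 with a median of 4.59 in normal cells. All 4 H2 arrays lay above 7 of the 8 normal arrays, and normal replicate 3 was above them all. The H2 difference was 1.28 ± 0.44, with a limma adjusted p of 0.114. Without normal replicate 3 it was 1.55 ± 0.33 and was called, with a limma adjusted p of 0.0138. With array spread as a covariate it was 0.18 ± 0.35, and with the Actb covariate 0.81 ± 0.45.

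The other probe set, 1440615_at, was dim by its mean over all arrays, just under the median of gene means. It had 4.22, 5.58 and 3.86 in H1, and 2.30, 3.58, 3.48 and 4.15 in H2, against 4.05 to 5.35 with a median of 4.85 in normal cells. Of the H2 arrays, 3 lay below every normal array. In the fit over all 45037 probe sets its H2 difference was -1.43 ± 0.35, with an interval of -2.18 to -0.68 and a limma adjusted p of 0.0476. That fit called 2 of the 15 member probe sets in H2, those of Dusp6 and this one, against 2.04% of all probe sets. The mean of both Dusp16 probe sets differed by -0.07 in H2 (limma adjusted p = 0.916). The files do not say which transcripts the probe sets match, and no direction is given for the gene.

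**Figure D3:**
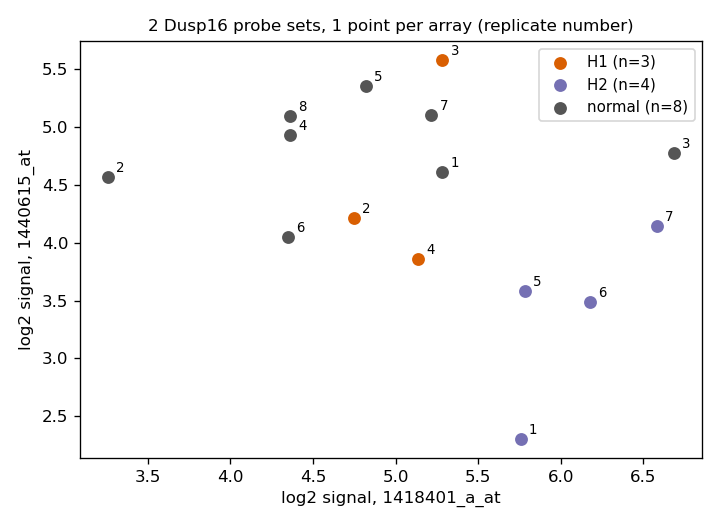
Log2 signals of the Dusp16 probe sets, 1418401_a_at on the horizontal and 1440615_at on the vertical axis, with 1 point per array labelled by its replicate number. The 4 H2 arrays sit at 5.76 or above on the horizontal axis and at 4.15 or below on the vertical axis, a corner that holds no H1 and no normal array.

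On its brighter probe set, Dusp10 was below the normal mean on every lesion array. The brighter probe set, 1417163_at, had 4.47, 4.81 and 5.16 in H1, and 5.13, 5.21, 4.73 and 5.21 in H2, against 5.05 to 5.75 with a median of 5.31 in normal cells. The normal mean was 5.35 ± 0.21 (SD, n = 8), and the ranges overlapped. The difference was -0.54 ± 0.20 in H1 (limma adjusted p = 0.997) and -0.28 ± 0.18 in H2 (limma adjusted p = 0.399). Over all lesions it was -0.39 ± 0.16 (limma adjusted p = 0.315). The dim probe set 1417164_at had differences of the same sign, -0.50 ± 0.27 in H1 and -0.27 ± 0.25 in H2. On it, H1 replicate 4 (4.12) lay just above the normal mean (4.11). Neither probe set passed the test.

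Dusp8 was measured by 3 probe sets. The brightest, 1447346_s_at, had 5.20, 4.89 and 4.03 in H1, and 3.98, 3.84, 4.26 and 4.55 in H2, against 4.28 to 5.25 with a median of 4.80 in normal cells. All 4 H2 arrays lay below the normal mean. The H2 difference was -0.60 ± 0.23 (limma adjusted p = 0.151) and the H1 difference -0.05 ± 0.25. The dim probe sets 1428864_at and 1418714_at differed from normal by -0.10 and -0.12 in H2, and by -0.20 and 0.25 in H1. The mean of the 3 probe sets differed by -0.27 in H2.

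**Figure D4:**
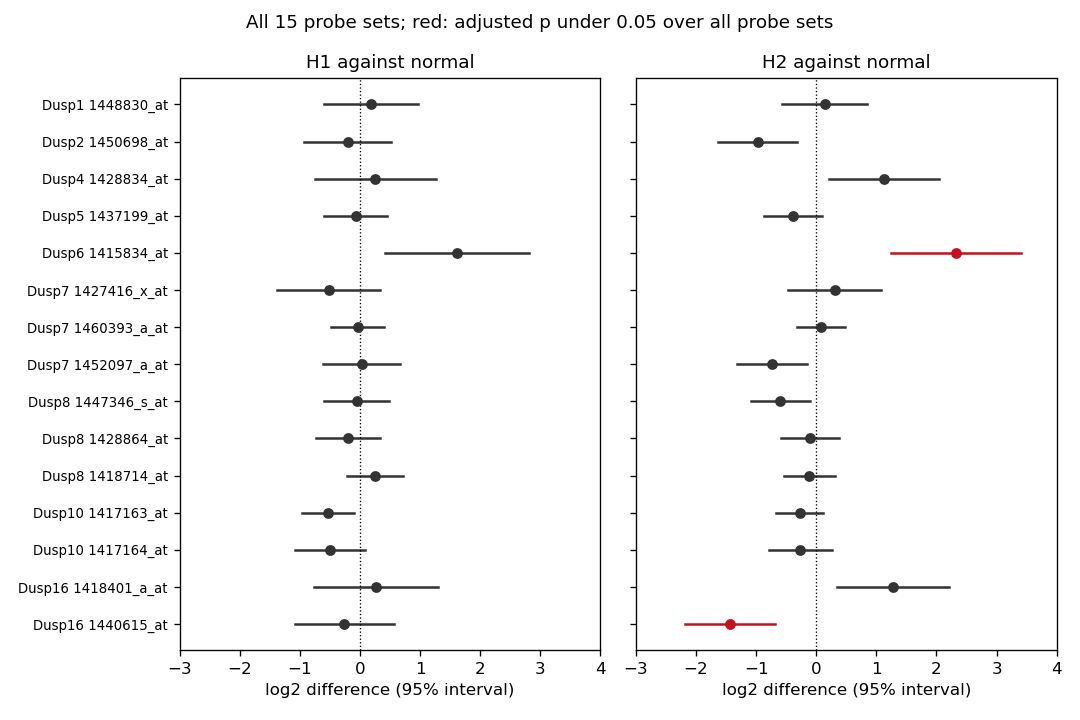
Log2 difference from normal cells (horizontal axis, point with 95% interval) of all 15 probe sets (vertical axis) in H1 and in H2. Red marks an adjusted p under 0.05 over all probe sets, which holds for Dusp6 (2.32) and for Dusp16 1440615_at (-1.43) in H2 and for none in H1.

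H1 and H2 were compared directly for the same genes. No member passed the test, and on the brightest probe set of each gene 0 of 9 had a p under 0.05 in limma. The largest difference was that of Dusp16, with H1 minus H2 at -1.02 (interval -2.19 to 0.15, limma adjusted p = 0.456). Its brighter probe set was the 1 of 9 whose H1 and H2 values did not overlap, against 18.2% of all genes. The other probe set differed by 1.17 ± 0.44 with the opposite sign (limma adjusted p = 0.364). Dusp7 1452097_a_at had 4.39, 3.71 and 3.81 in H1, above all H2 arrays at 2.99, 3.04, 3.54 and 3.24, with a difference of 0.77 ± 0.34 (limma adjusted p = 0.417). Groups without overlap were not seen for any member in lesions against normal (0.225% of all genes) or in H1 against normal (1.40% of all genes).

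The kinases that these enzymes act on were measured on the same arrays, and none was called in any comparison. Of the MAP kinase genes, 8 were measured. In H2 against normal, Mapk9, a JNK gene, differed by 1.02 ± 0.31 (limma adjusted p = 0.0767). Mapk7 and Mapk10 differed by -0.48 and -0.43. The list's median difference was -0.03 in H2. Mapk7 and Mapk12 were at -0.30 and -0.31 in H1 against normal, and Mapk14, a p38 gene, at -0.28.

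Of 7 MAP kinase kinases 6 were measured, and Map2k4, which activates JNK, differed by 1.15 ± 0.33 in H2 (limma adjusted p = 0.0643) and by 0.63 in H1. Map2k1 and Map2k2, the kinases of ERK, were at 0.38 and -0.46 in H2, and the list's median was 0.12. In H1, Map2k6 was at -0.44 (limma adjusted p = 0.997) and Map2k1 at -0.46. The tyrosine phosphatases of MAP kinases (2 of 3 measured) had no called gene, with Ptpn5 at -0.12 and Ptprr at -0.07 in H2.

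All 17 other dual specificity phosphatases were measured. Of these, 1 of 17 was called in H2 against normal, against 3.38% of all genes, and 0 in the other comparisons. Styx, a relative of the family without catalytic activity, was higher in H2 than in normal cells by 1.77 ± 0.44 (limma adjusted p = 0.0373). Its other 3 probe sets differed by -0.17 to 0.06, and the call held in 10 of 24 alternative settings. Such counts of settings for genes other than the members leave out the replicate block and the fit over all probe sets. Dusp15 and Dusp26 were at -0.51 and -0.44 in H2. The list's median was -0.19 in H2, -0.05 in H1 and -0.15 over all lesions.

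Genes outside the family that ERK activity induces held the other calls of the pathway apart from Styx and Egr1. Of 15 listed 14 were measured, and Etv1 was not analysed here. In H2 against normal 4 of 14 were called, all higher, against 3.38% of all genes, and the median difference was 0.77. Spry2, which restrains receptor tyrosine kinase signalling to Ras, averaged 7.34 in H2 and 4.37 in normal cells, a difference of 2.96 ± 0.49 (limma adjusted p = 0.00661). Spred1, an inhibitor of Ras activation of Raf, differed by 2.69 ± 0.47 (limma adjusted p = 0.0098).

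Phlda1 differed by 2.14 ± 0.39 (limma adjusted p = 0.011), and Spred2, a relative of Spred1, by 1.30 ± 0.28 (limma adjusted p = 0.0219). In lesions against normal, 3 of 14 were called, against 0.291% of all genes, and all were higher: Spry2 by 2.46, Spred1 by 2.34 and Phlda1 by 1.89, each with a limma adjusted p of 0.0284. In H1 against normal 0 of 14 were called in limma. Before adjustment, 3 were higher and 1 lower with p under 0.05, and Spred1, Spry2 and Phlda1 were at 1.88, 1.78 and 1.54. The 4 called in H2 are shown in the plot of genes by list, beside Dusp6 at 2.32.

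The lesion calls held in 13 of 23 alternative settings for Spry2, 14 for Spred1 and 16 for Phlda1. Neither these settings nor those for H2 below include the fit over all probe sets or the replicate block. Under that block 39 genes in all were called in H2 against normal. The lowest differences were 1.30 for Spry2 and 1.41 for Spred1, both on the mean of their probe sets. Without H2 replicate 5, 6 or 7, or normal replicate 4 or 8, all 3 lesion calls were lost, with limma adjusted p of up to 0.0853. The calls of Spry2 and Spred1 in H2 each held in 23 of 24 alternative settings and that of Phlda1 in 22. All 3 H2 calls were lost with array spread as a covariate, where Spry2 was at 1.84 (limma adjusted p = 0.0526), Spred1 at 1.76 (0.0979) and Phlda1 at 1.99 (0.0676). Spred2 was called in 18 of 24, and the mean of its 5 probe sets differed by 0.12. The second Spry2 probe set differed by 0.12 ± 0.30, and the 8 Spred1 probe sets by 0.07 to 2.69.

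Of 11 immediate early genes, 1 was called in H2 against normal, against 3.38% of all genes, and 0 in the other comparisons. Egr1, a zinc finger transcription factor induced by ERK, averaged 9.16 in H2 and 7.32 in normal cells, a difference of 1.83 ± 0.46 (limma adjusted p = 0.0404). That call held in 8 of 24 alternative settings, and the difference was 0.85 after a repeated quantile normalization. In the fit over all probe sets, not among the 24, it was not called (limma adjusted p = 0.0501). Egr2 was at 1.19 and Atf3 at -0.70 in H2. Nr4a1 was at -0.48 and Zfp36 at 0.99 in H1, and the list's median was 0.32 in H2 and 0.09 in H1.

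**Figure D5:**
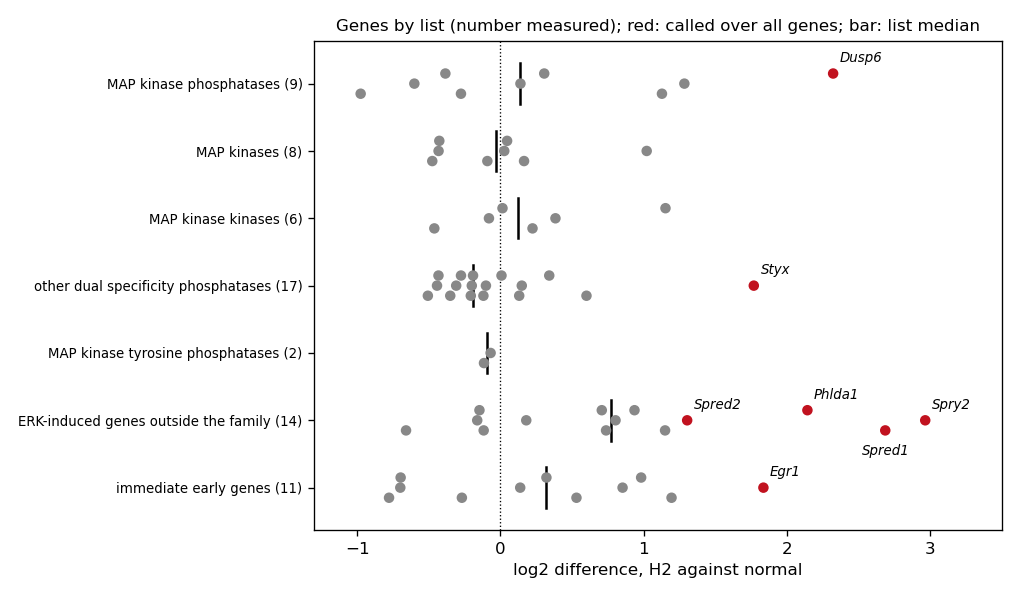
Log2 difference between H2 and normal cells (horizontal axis) of each gene in 7 lists (vertical axis, with the number measured). Red points passed the test over all genes and vertical bars are list medians. The called genes are Dusp6, Styx, Spry2, Spred1, Spred2, Phlda1 and Egr1, all at 1.30 or higher, while the medians run from -0.19 to 0.77.

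For each member whose mean lay above the median of the gene means, the genes most like it were sought among 8602 genes by Pearson r over the 15 arrays. These values describe the arrays, which differ in group, cell makeup and spread. Dusp6 was followed most closely by Mcm4 (r = 0.941), a subunit of the replicative helicase, and by Tc2n (0.937) and Etfrf1 (0.932). Within the 8 normal arrays r was 0.90, 0.784 and 0.862 for these 3 genes, and within the 7 lesions 0.836, 0.966 and 0.828. These r values come from the arrays on which the genes were chosen, so they are no independent check.

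Dusp4 was closest to Sox9 (r = 0.919), a transcription factor of the distal lung epithelium in development, Col18a1 (0.907) and Serpinf1 (0.883). Within the 8 normal arrays r was 0.175 for Sox9 and 0.078 for Col18a1, against 0.983 and 0.99 within the 7 lesions, where H2 replicate 7 stands apart in Dusp4. The brighter Dusp16 probe set was closest to Tardbp (0.939), an RNA-binding protein, Acaa2 (0.93) and Nbr1 (0.93), with r of at least 0.916 within normal arrays for each. Dusp1 was closest to Tbc1d22a (0.874), Kcna4 (0.818) and Ak5 (0.80). For these genes r was 0.899, 0.849 and 0.932 within the normal arrays. Within the lesions it was 0.748 and 0.771 for Tbc1d22a and Kcna4, but 0.126 for Ak5.

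Of the remaining members, Dusp7 (1427416_x_at) was closest to Brpf3 (r = 0.909), Cd99 (0.89) and Stxbp5l (0.889). Dusp8 was closest to Lypd2 (0.903), Slc8b1 (0.855) and Obsl1 (0.854). Dusp5 was closest to Slc25a33 (0.82), Cnih2 (0.803) and Xrn1 (0.778), and Dusp10 to Pygo2 (0.778), Dtx3l (0.76) and Fbxo10 (0.749). No gene stood among the first 3 of more than 1 member.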

How the data were processed

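Per the labels' protocols, the RNA came from a PicoPure extraction and a WT-Ovation One-Direct amplification. The authors deposited 1 table of log2 signals, with a row per probe set, and the submitters' processing notes name affy and RMA (background correction, quantile normalization and probe summary), with no version. The deposited arrays did not share a common distribution. Their medians ran from 3.87 to 4.06 and the standard deviations of their gene values from 1.14 to 1.78. The main fit used the values as deposited, and the repeated quantile normalization put all arrays on a common distribution. Of 45101 probe sets, 64 array controls were left out. Of the 45037 tested, 34945 carried 1 symbol in the platform annotation, 932 several and 9160 none, and gene results used the first kind. The number of arrays limits the precision. No 2 arrays correlated above 0.9446.

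Differences were tested with limma 3.58.1 (R 4.3.3, lmFit and eBayes). Lesions against normal was a fit with 2 groups and the H1 and H2 comparisons were contrasts in a fit with 3, both over all 15 arrays, adjusted by Benjamini-Hochberg over all 18193 genes or 45037 probe sets. The scripts were tested on simulated data. The members and lists were chosen with earlier results of these data known. All members were named, with called genes and up to 3 genes of lowest p per pathway list and comparison, and the 3 most correlated genes for members above the median of gene means (predicted and sex-linked genes left out). Alternatives were other scalings, filters, probe set rules, priors, covariates, the replicate number as a block, fewer arrays, and each array left out. Samples with the same replicate number in a lesion group and in normal cells were checked for pairing. No clear pairing was seen, which does not exclude it.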

Additional observations from a re-analysis of the deposited data

Results flagged for a closer look

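A lone value was sought in each probe set of the family, among the 4 H2 arrays, the 7 lesion arrays and the 8 normal arrays, by the gap of the highest or lowest array to its neighbour as a share of the whole range. It was found in 4 of 45 groups of values, and chance gives about 5% of groups. The groups overlap, since the H2 arrays are among the lesion arrays, and 2 of the 4 are the same Dusp4 value. Dusp4 in H2 replicate 7 had a log2 signal of 7.72, against 5.00 for the next of the 4 H2 arrays (gap 0.954 of the range) and 5.02 for the next of the 7 lesion arrays (0.863). Dusp8 probe set 1418714_at in H1 replicate 3 stood at 3.88 among the 7 lesion arrays (0.662), a dim value. Dusp10 probe set 1417163_at in H2 replicate 6 stood at 4.73, below the other 3 H2 arrays (0.837).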

How the results depend on the processing

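The 9 members were followed in 4 comparisons. With 1 array left out at a time, 519 of 540 differences kept their direction and their side of the threshold, 3 lost the call, 4 gained one and 14 changed sign. Under the other alternatives 362 of 387 kept both, 5 lost the call, 1 gained one and 19 changed sign. Dusp2 is itself dim and was absent from the fit with dim genes left out. The values counted for it there, in each of the 4 comparisons and among the 362, are therefore not its own. They belong to another gene whose name begins with the same letters, which the lookup by name returned in its place. In H2 against normal the value counted was -0.44, against -0.98 for Dusp2 in the main fit. The numbers of genes called moved more. In lesions against normal, 53 genes were called (51 higher, 2 lower), 73 after a repeated quantile normalization (62 and 11), 93 with the replicate block, 86 with array spread as a covariate (40 and 46), and 8 (without H2 replicate 5) to 238 (without H1 replicate 2) with 1 array left out. Beside those 2 arrays, the count moved by over 1.5 times without H1 replicate 3 (21) or 4 (29), H2 replicate 1 (26), 6 (11) or 7 (13), or normal replicate 3 (133), 4 (11), 5 (18), 7 (15) or 8 (13). The members called there were 1 with dim genes left out and 0 to 1 with 1 array left out. In H1 against normal, 2 genes were called, against 0 with the mean of a gene's probe sets, 1 with every probe set tested, 0 with the replicate block, 21 with array spread, 1 with only the arrays compared, and 1 to 5 (without normal replicate 3) with 1 array left out. In H2 against normal, 615 were called, against 201 after a repeated quantile normalization, 39 with the replicate block, 155 with array spread (57 higher, 98 lower), 92 with the Actb covariate, 391 with only the arrays compared, 347 without the 2 normal arrays of narrowest spread (an alternative chosen after seeing the data), and 119 (without H2 replicate 7) to 1378 (without normal replicate 3) with 1 array left out. Beside those 2 arrays, it moved by over 1.5 times without H2 replicate 5 (319) or 6 (124), or normal replicate 1 (1014), 4 (359), 5 (350), 7 (325) or 8 (363). The members called there fell to 0 under the quantile repeat, the replicate block, array spread, the Actb covariate and without those 2 normal arrays, and ran from 0 to 2 with 1 array left out. In H1 against H2, 1 gene was called, against 0 with the quantile repeat, the mean of probe sets, every probe set, a trended and robust prior, the replicate block, array spread, the Actb covariate and only the arrays compared, 2 without the 2 narrow normal arrays, and 0 to 2 with 1 array left out.

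Changes of sign were all of differences that were not called. In lesions against normal they were Dusp7 at 0.026 (arrays centred on their medians), Dusp1 at -0.42 (quantile repeat) and -0.11 (array spread), and Dusp16 at -0.041 (mean of its probe sets), and Dusp7 ran from -0.23 to 0.081 with 1 array left out. In H1 against normal they were Dusp8 at 0.0014 (centred), 0.020 (quantile repeat) and 0.00026 (mean of probe sets), Dusp4 at -0.086 (replicate block), and Dusp2 at 0.0024 and Dusp16 at -0.063 (without the 2 narrow normal arrays). With 1 array left out Dusp1 ran from -0.0089 to 0.34, Dusp2 from -0.56 to 0.11, Dusp5 from -0.24 to 0.21 and Dusp8 from -0.30 to 0.28. In H2 against normal they were Dusp1 at -0.76 (quantile repeat), -0.43 (array spread) and -0.17 (Actb covariate), Dusp7 at -0.12 (mean of probe sets) and -0.48 (array spread), and Dusp16 at -0.074 (mean of probe sets), and Dusp1 ran from -0.039 to 0.30 with 1 array left out. In H1 against H2 they were Dusp16 at 0.077 (mean of probe sets) and Dusp6 at 0.52 (replicate block) and 0.14 (array spread), and Dusp1 ran from -0.15 to 0.22.

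No clear pairing by replicate number was seen. Of 7 pairs of a lesion and a normal array with the same number, 4 correlated above 0.1 (range -0.143 to 0.38). Only 1 lesion correlated best with its own number. Such correlations cannot tell whether samples of the same number share a mouse. With the replicate block Dusp6 in H2 against normal was 1.62 (limma adjusted p = 0.238), and the block changed no other member's call. Low signal limits what can be read for Dusp2, Dusp16 1440615_at and the dim probe sets of Dusp7, Dusp8 and Dusp10.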
